A study of Mus musculus with 3 samples.

Results

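The genes described here encode RNA polymerase II, the Mediator complex and the general transcription factors, followed in the mouse melanoma line B16 over 4 h of doxorubicin. They were picked by a rule on gene symbols. It takes every gene whose annotated name begins with Polr2, with Gtf2 or with Med and a number, or is Taf followed by a number. A probe set with 1 gene symbol was also required. This gave 70 genes of the 18194 on the array, on 128 probe sets. They comprise 11 Polr2 genes, 30 Mediator genes, 13 Taf genes, 12 genes of TFIIA, TFIIB, TFIIE, TFIIF and TFIIH, and 3 of the TFII-I family. The last is Med9os, a noncoding RNA beside Med9 that meets the rule by its name and encodes no Mediator subunit. A further 6 probe sets with several symbols were left out.

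The study has 3 groups of B16 cells, an established pigmented tumour line: 0 h, 2 h and 4 h in 1 µg/ml doxorubicin, with 1 array per group and no replicate. Doxorubicin is a chemotherapy drug of the anthracycline class, which inserts between DNA bases and traps topoisomerase II on DNA. No untreated culture of 2 h or 4 h was analysed here, so drug and time in culture cannot be told apart. No spread between cultures could be measured, and no test, p-value or standard error is given. Precision is limited by having a single array at each time.

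RNA polymerase II transcribes the protein-coding genes of the nucleus, and it cannot find a promoter alone. TFIID, made of the TATA-binding protein and its associated factors (TAFs), recognises the core promoter, and TFIIA, TFIIB, TFIIF, TFIIE and TFIIH then bring in the polymerase, open the DNA and release the enzyme. Mediator bridges activators bound at enhancers and this machinery, through head, middle and tail modules and a detachable kinase module.

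The labels do not agree on the cells, because the description names murine BMDM where every other field names B16 cells. The description and the source name of the later samples also give an ET treatment, which is not spelled out, where the titles and the treatment protocol give doxorubicin. The summed signal of 7 pigment cell markers was 157032, 162487 and 168081 at the 3 times in order, against 3580, 4589 and 5059 for 8 macrophage markers and 2974, 3307 and 2893 for 5 fibroblast markers. Itgam and Ptprc, which mark macrophages and leukocytes, were under a signal of 100 on all 3 arrays, and 5, 4 and 4 of the 8 macrophage markers reached a signal of 200. Those over 200 on all 3 arrays were Cd68 (1884, 3044 and 3699), Csf1r (522, 424 and 376) and Lyz2 (372, 414 and 398). Tyr, the dimmest of the pigment list, had 221, 170 and 142. The transcription factor genes Sox10 and Mitf of the pigment list had signals of 11710, 2640 and 892 and of 6576, 2031 and 739, lower at each successive time. The part of the macrophage and fibroblast signals in the results below was not tested. Per the file headers, the 4 h array was put through the fluidics station later in the same day and on another module, so the run and the 4 h time cannot be told apart.

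Signals are the deposited intensities scaled to a trimmed mean of 500 on each array. Values under a floor of 100 were raised to 100 before log2 ratios were taken. A gene passed with a mean log2 signal of at least that of 200, and its probe set with the highest mean stood for it. Where ± is printed, the ratio before it is that of this probe set alone. The SD after it is over all passing probe sets of the gene, around their mean. The printed ratio is therefore not the mean of the probe sets and can lie at the edge of their spread. Of the 70 members 63 passed, with 93 probe sets, among 9723 genes in all. For members measured by more than 1 passing probe set, the pooled SD of log2 ratios within a gene was 0.50 for 2 h and 0.54 for 4 h against 0 h over 22 members, and 0.40 and 0.48 over all 3905 such genes. This measures disagreement of probes within an array and no error of the cultures. Because every array is scaled to the same mean, less RNA per cell and fewer cells cannot be told apart from each other, and neither would appear as a lower signal of all genes.

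Promoters are shown for the members the results turn on, from RefSeq (GRCm38.p6). The lines below give the 250 bases before the annotated start, 5′ to 3′ on the gene's strand, for the lowest pair of Mediator genes at 4 h, the gene that was at least 2-fold higher and the largest polymerase subunit. Capitals mark matches on either strand to 5 motifs. The TATA box was searched as TATAAA and the GC box as GGGCGG. The ETS site was searched as CCGGAAG and the CCAAT box by the letters of its name. The last, a site of the factor NRF1, was searched as GCATGCG, and no 2 matches overlapped in the windows shown. The windows are chr2:26910643-26910892 on the minus strand for Med22, chr4:132463922-132464171 on the minus strand for Med18, chr3:108571449-108571698 on the plus strand for Taf13 and chr11:69758634-69758883 on the minus strand for Polr2a.
Med22: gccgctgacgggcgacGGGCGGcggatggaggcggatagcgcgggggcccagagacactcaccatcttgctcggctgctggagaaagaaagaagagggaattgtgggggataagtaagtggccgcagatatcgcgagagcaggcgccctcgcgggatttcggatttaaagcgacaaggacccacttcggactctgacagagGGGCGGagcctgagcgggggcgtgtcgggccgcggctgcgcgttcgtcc
Med18: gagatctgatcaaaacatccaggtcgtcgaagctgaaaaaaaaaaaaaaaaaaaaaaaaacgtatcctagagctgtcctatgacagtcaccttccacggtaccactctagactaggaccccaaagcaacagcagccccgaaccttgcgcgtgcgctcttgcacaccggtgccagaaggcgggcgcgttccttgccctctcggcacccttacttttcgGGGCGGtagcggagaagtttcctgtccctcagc
Taf13: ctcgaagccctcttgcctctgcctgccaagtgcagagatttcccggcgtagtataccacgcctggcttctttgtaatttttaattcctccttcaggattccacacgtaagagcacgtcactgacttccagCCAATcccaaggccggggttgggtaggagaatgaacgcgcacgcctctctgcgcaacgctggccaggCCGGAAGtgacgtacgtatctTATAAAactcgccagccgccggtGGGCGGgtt
Polr2a: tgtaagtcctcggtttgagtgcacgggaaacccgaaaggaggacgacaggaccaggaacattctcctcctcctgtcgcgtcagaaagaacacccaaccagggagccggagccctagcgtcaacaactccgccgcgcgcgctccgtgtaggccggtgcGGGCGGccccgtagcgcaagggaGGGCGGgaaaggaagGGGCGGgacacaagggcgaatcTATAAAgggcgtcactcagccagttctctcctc

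Taf13 and Polr2a each hold TATAAA, beginning 32 and 33 bases before the start, and the Med22 and Med18 windows hold GC boxes only. A TATAAA was found in 11 of the 61 members with a window (18.0%), against 14.3% of all 27025 genes in the table and 7.92% of the 7937 that passed the filter. The 11 were Gtf2a2, Gtf2f1, Med16, Med28, Med7, Polr2a, Polr2c, Taf11, Taf13, Taf5 and Taf6. Among the members that were at least 2-fold lower at 4 h it was found in 0 of 9, and among the other passing members in 10 of 46. Over all genes at least 2-fold lower at 4 h it was found in 85 of 1132 (7.51%), beside the 7.92% of all passing genes. GC boxes were found in 63.9% of the members, against 35.4% of all genes in the table and 64.6% of those that passed. The ETS site was found in 24.6% of the members (7.83% of all, 16.7% of passing genes), the CCAAT box in 37.7% (37.5% and 40.3%) and the NRF1 site in 11.5% (3.43% and 6.73%). These matches are letters in a window and were not shown to be bound.

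At 2 h no member was at least 2-fold lower or higher than at 0 h, where the background over all genes was 5.69% lower and 1.41% higher by that measure. The members ran from -0.98 for Taf8 to 0.72 for Med18 on the log2 scale. Their median was -0.05, against -0.01 for all genes. At 4 h, 10 of the 63 members were at least 2-fold lower than at 0 h, which is 15.9% against 14.4% of all genes. Taf13 alone was at least 2-fold higher, 1.59% against 2.32% of all genes. The median log2 ratio was -0.11, against -0.07 for all genes. The members as a whole therefore lay near the background at 4 h, and the spread among them was wide.

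The lower members were Med22, Med18, Med23, Med26, Med31, Med4, Med17, Gtf2e1, Taf8 and Taf4, so 7 of the 10 belong to Mediator. Mediator had 7 of 29 passing genes at least 2-fold lower (24.1%), and the members outside Mediator 3 of 34 (8.82%), beside 14.4% of all genes. None of the polymerase subunits measured was among the 10. With 1 array per time this difference was not tested. The background itself moved with scaling: with equal medians the share of members lower stayed at 15.9% while that of all genes was 8.95%, with quantile normalization the shares were 17.5% and 10.2%, and with scaling to the hybridization spike-ins 20.6% and 22.7%. In these scalings 7.53%, 4.43% and 0.668% of all genes were at least 2-fold higher. The median log2 ratio of all genes at 4 h was -0.07 here, 0.24 with equal medians, 0.05 with quantile normalization and -0.39 with the spike-ins.

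**Figure D1:**
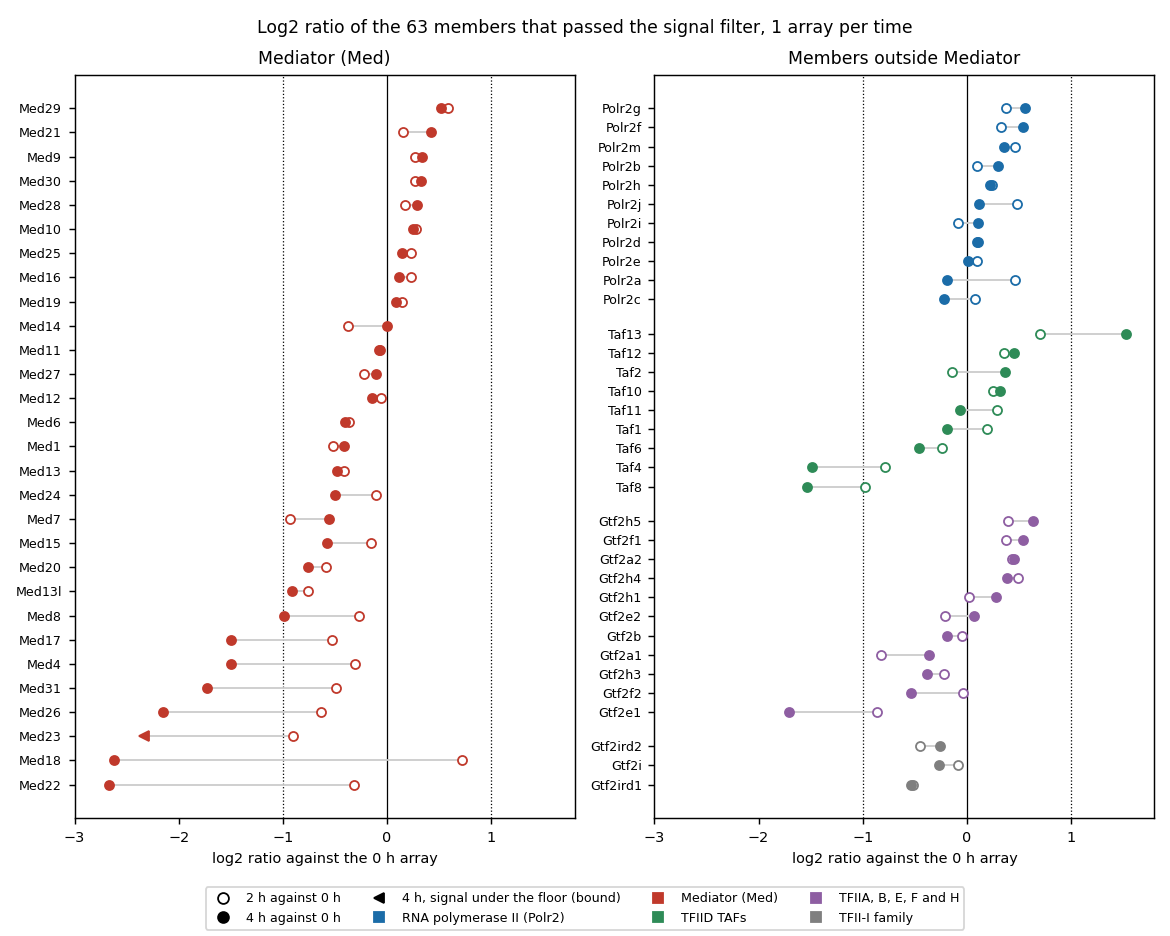
Log2 ratio against the 0 h array (x axis) for each of the 63 passing members (rows, ordered by the 4 h value within a complex); open circles are 2 h, filled symbols 4 h, and dotted lines mark 2-fold. The 7 Mediator genes at the bottom of the left panel lie beyond 2-fold at 4 h but not at 2 h, and all 11 Polr2 genes lie between -0.22 and 0.56 at 4 h.

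The 11 Polr2 genes include Polr2m, of a polymerase-associated protein, and lack the shared subunits Polr2k and Polr2l, which had no probe set with 1 symbol. All 11 lay within 1.5-fold of 0 h at both times, against 57.6% of all genes and 73.0% of the passing members. This depended on scaling: with equal medians it was 5 of 11, against 48.9% of all genes, while it was 11 of 11 with quantile normalization and with spike-in scaling. Polr2a, the largest subunit, which carries the repeated carboxy-terminal tail that is phosphorylated during transcription, had its highest signal at 2 h, with 4635 at 0 h, 6401 at 2 h and 4067 at 4 h. Its log2 ratios were 0.47 ± 0.32 at 2 h and -0.19 ± 0.40 at 4 h (SD over 2 probe sets), and the 4 h array lay near 0 h. Polr2b, which completes the active site, had signals of 3181, 3396 and 3921.

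Polr2g, a subunit of the stalk that contacts the emerging RNA, gave 8873 (0 h), 11514 (2 h) and 13094 (4 h) signal units, a log2 ratio of 0.56 at 4 h. Polr2d, its stalk partner, stood at 0.10 at both times. Polr2c and Polr2j, the pair on which the enzyme assembles, were at 0.08 and 0.48 at 2 h and at -0.22 and 0.12 at 4 h. Polr2i, which in yeast aids transcription fidelity, was at -0.08 and 0.11. Of the subunits that RNA polymerases I and III also contain, Polr2f had signals of 6976, 8761 and 10160 (0.54 ± 0.48 at 4 h, SD over 2 probe sets), while Polr2h was at 0.22 and Polr2e at 0.01 at 4 h. Polr2m, which encodes the polymerase-associated protein Gdown1, was at 0.46 and 0.35. The median over the 11 genes was 0.24 at 2 h and 0.12 at 4 h. Relative to the median of all genes it was 0.18 at 4 h, but -0.02 with quantile normalization, so no direction can be given for the enzyme as a whole.

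The head module of Mediator, which touches the polymerase, had 3 of 7 genes at least 2-fold lower at 4 h (42.9%, against 14.4% of all genes). All 7 were below their 0 h signal at 4 h, against 53.9% of all genes, but 6 of 7 with equal medians and with quantile normalization, where Med11 was not, and with the dimmest probe set, where Med6 was not. Med22, a small head subunit that in yeast pairs with Med11, gave 775 (0 h), 623 (2 h) and 122 (4 h) signal units, 6.34-fold lower at 4 h than at 0 h (log2 ratio -2.67). Med18, which forms a movable part of the head with Med20 and Med8, had signals of 823, 1353 and 134, 6.16-fold lower at 4 h (-2.62). Its 2 h signal was above that at 0 h, the highest log2 ratio of any member at 2 h, and the 4 h signal was far below both.

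Between 2 h and 4 h Med18 had a log2 ratio of -3.34, the lowest of all 9723 genes in that comparison, and it ranked between 1 and 5 from the bottom in the 13 settings tried. It rests on 1 probe set, and so does Med22. Med17, the scaffold of the head, had signals of 819.8, 570 and 291 (-1.49 at 4 h). Med8 was just outside the 2-fold limit, with signals of 2851, 2373 and 1432 (-0.99), and Med20 had -0.76 ± 0.04 (SD over 2 probe sets). Med6 and Med11 were at -0.40 ± 0.32 (SD over 2 probe sets) and -0.08 at 4 h. The module's median was -0.31 at 2 h and -0.99 at 4 h.

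In the middle module 3 of 9 genes were at least 2-fold lower at 4 h (33.3%, against 14.4% of all genes), with a median of -0.41. Med26, which recruits elongation factors to promoters, had signals of 462, 297 and 104, 4.46-fold lower at 4 h. Its other passing probe set, with signals of 198, 245 and 194, did not show this, and the log2 ratio was -2.16 ± 1.50 (SD over 2 probe sets). Med31, a small conserved subunit, had signals of 1094, 779 and 331 (-1.72). Med4 had 847, 683 and 299.6 (-1.50). Both were lower at each successive time, with the larger step after 2 h.

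Other middle genes did not share this. Med7 had its lowest signal at 2 h, with 1017, 532 and 692 (-0.93 at 2 h and -0.55 at 4 h), and Med21, its partner in the module's hinge, was at 0.15 and 0.42. Med1, which binds nuclear hormone receptors, was at -0.51 ± 0.36 and -0.41 ± 0.54 (SD over 6 probe sets). Med10 and Med19 were at 0.25 and 0.09 ± 0.11 (SD over 2 probe sets for Med19) at 4 h. Med9 was at 0.34 ± 0.89 (SD over 2 probe sets), its second probe set lying at -0.93.

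The scaffold, tail and adjoining subunits had 1 of 10 genes at least 2-fold lower at 4 h (10.0%, against 14.4% of all genes) and a median of 0.06. That gene was Med23, a tail subunit contacted by activators such as Elk1, with signals of 502, 268 and 60.9. The 4 h signal was under the floor, so Med23 was at least 5.02-fold lower at 4 h than at 0 h. Med14, the backbone that joins the modules, had 1362, 1052 and 1364 (0.00 ± 0.56 at 4 h, SD over 4 probe sets). Med15, a target of sterol-responsive activators, was at -0.58 and Med24 at -0.50 at 4 h.

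Med28, Med30 and Med29 were the other end of this group, at 0.29 ± 0.12 (SD over 2 probe sets), 0.33 and 0.52 at 4 h. Med16, Med25 and Med27 lay between -0.11 and 0.14. Med25 had a second probe set at -0.91. In the kinase module Med13l had signals of 835, 493 and 443 (-0.91 at 4 h), the next gene outside the 2-fold limit after Med8. Med13, which links the kinase module to the core, was at -0.48 ± 0.29 (SD over 2 probe sets), and Med12, the activator of the kinase Cdk8, at -0.14. All 3 passing members of the kinase module were below 0 h at both times, beside 4082 of all 9723 genes. None of the 3 was lower by 2-fold, a limit that the count over all genes did not have. With equal medians or quantile normalization Med12 was not below 0 h at 4 h. Of the module's genes outside the symbol rule, Cdk8 was at -1.33 and the cyclin gene Ccnc at 0.51 at 4 h. The Cdk8 relative Cdk19 was at -0.81 ± 0.45 (SD over 2 probe sets).

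**Figure D2:**
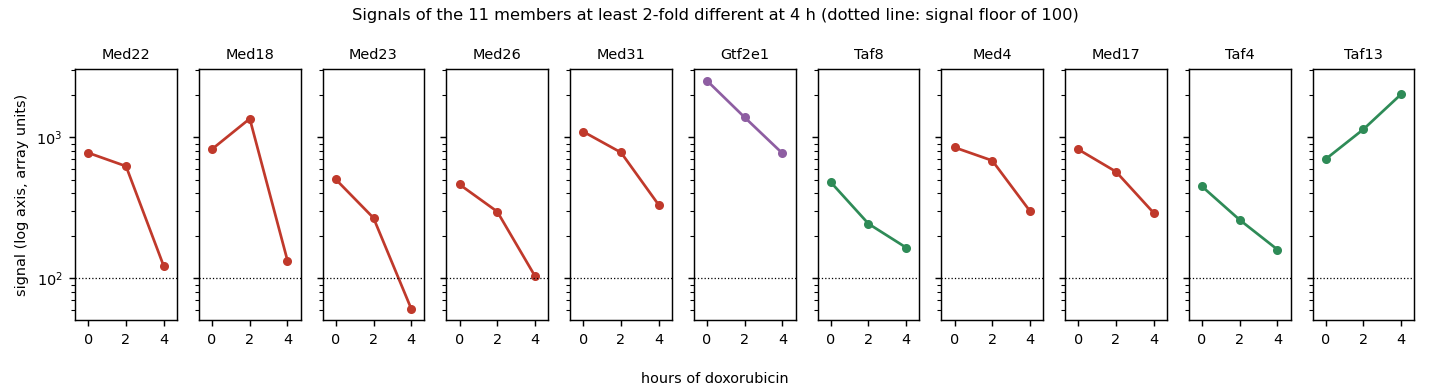
Signal (y axis, log scale, array units) against hours of doxorubicin (x axis) for the 11 members at least 2-fold different at 4 h, 1 point per array; the dotted line is the floor of 100. Med18 is the only one of the 10 lower genes with a higher signal at 2 h than at 0 h, and Taf13 is higher at each successive time.

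The TAF genes went both ways. Taf13, which joins the lobe of TFIID that holds the TATA-binding protein, gave 700.2 (0 h), 1139 (2 h) and 2019 (4 h) signal units, 2.88-fold higher at 4 h (log2 ratio 1.53). It rests on 1 probe set and was higher at each successive time. Taf4, a core TAF contacted by activators, had signals of 448, 259 and 159.9 (-1.49 ± 0.31 at 4 h, SD over 2 probe sets), and both of its probe sets were at least 2-fold lower. It was the only one of the 3 lower members with several probe sets for which this held.

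Taf8 had signals of 480, 244 and 165 (-1.54 ± 1.10 at 4 h, SD over 2 probe sets). Its other probe set had 231, 278 and 233, a log2 ratio of 0.01, so the call rests on which probe set stands for the gene. Taf10, a histone-fold TAF, had 6935, 8227 and 8622 (0.31 ± 0.46, SD over 2 probe sets). Taf2, which helps TFIID contact the initiator, was at 0.37 ± 0.03 (SD over 2 probe sets), Taf12 at 0.45, Taf11 at -0.06, Taf1, the largest TAF, at -0.20, and Taf6 at -0.46. The 9 passing TAFs had a median of 0.19 at 2 h and -0.06 at 4 h.

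Among the general factors 1 of 11 passing genes was at least 2-fold lower at 4 h (9.09%, against 14.4% of all genes). Gtf2e1, the large subunit of TFIIE, which recruits TFIIH, had signals of 2513, 1380 and 768, 3.27-fold lower at 4 h than at 0 h (-1.71). Its partner Gtf2e2 had 3084, 2660 and 3240 (0.07). Gtf2e1 was lower at each successive time, and Gtf2e2 was not.

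Gtf2b, the TFIIB gene, which sets the polymerase on the promoter, was at -0.05 and -0.19. For TFIIF, which travels with the polymerase, Gtf2f1 was at 0.53 ± 0.45 (SD over 2 probe sets) and Gtf2f2 at -0.54 at 4 h. For TFIIA, which steadies TFIID on DNA, Gtf2a2 was at 0.45 and Gtf2a1 at -0.36 ± 0.54 (SD over 2 probe sets). TFIIH opens the DNA and also acts in nucleotide excision repair. Gtf2h5, its small stabilising subunit, had signals of 3836, 5033 and 5974 (0.64 ± 0.07, SD over 2 probe sets), the highest ratio of the general factors at 4 h. Gtf2h4 was at 0.38 ± 0.26 (SD over 3 probe sets), Gtf2h1 at 0.28 and Gtf2h3 at -0.38.

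The TFII-I family shares the name but acts as sequence-specific regulators. Gtf2i was at -0.27 ± 0.08 (SD over 3 probe sets), Gtf2ird1 at -0.54 and Gtf2ird2 at -0.26 at 4 h. All 3 were below 0 h at both times, beside 4082 of all 9723 genes. None of these 3 was lower by 2-fold, a limit not set for the count over all genes. With equal medians only 1 of 3 was below 0 h at both times, beside 2757 of 9740 genes. With quantile normalization it was 2 of 3, beside 3487 of 9736 genes. No direction can therefore be given for the family.

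**Figure D3:**
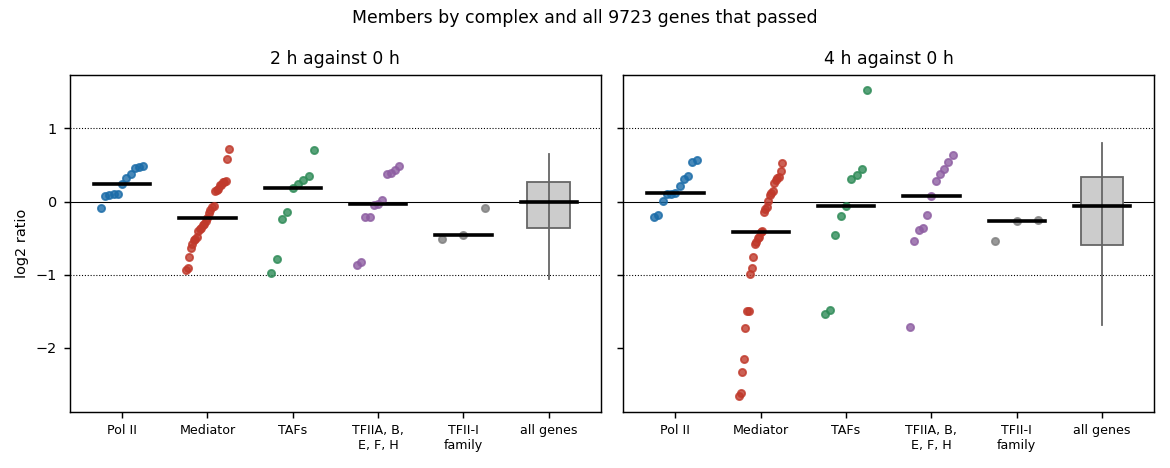
Log2 ratio at 2 h (left) and 4 h (right) against 0 h; each point is 1 member, thick lines are medians, and the box and line for all 9723 genes span the quartiles and the 5th to 95th percentiles. At 4 h the Mediator median is -0.41, that of the Polr2 genes 0.12, and that of all genes -0.07.

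Some subunits that pair within a complex had unlike ratios. The pairs given here were picked for that difference after the values were seen, so it is a description and was not tested. Of the histone-fold pairs in TFIID, Taf4 was at -1.49 at 4 h and its partner Taf12 at 0.45, Taf8 at -1.54 and Taf10 at 0.31, and Taf13 at 1.53 and Taf11 at -0.06. In the Mediator head Med22 was at -2.67 and Med11 at -0.08. Taf8 also has a probe set near 0.

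In the comparison of 4 h with 2 h, 6 members were at least 2-fold lower (9.52%, against 5.41% of all genes) and none was at least 2-fold higher, against 0.843% of all genes. The 6 were Med18 (-3.34), Med22 (-2.35), Med26 (-1.52), Med23 (at least 2-fold, with its 4 h signal under the floor), Med31 (-1.23) and Med4 (-1.19). All belong to Mediator. Of the 10 genes lower at 4 h, 9 were already below 0 h at 2 h, all 10 were lower at 4 h than at 2 h, and in 7 the second step was at least as large as the first. The comparison shares its arrays with those against 0 h, so these are not separate observations. The 10 genes were picked by the 4 h ratio, which is the sum of these steps, so falls in both follow in part from the choice. The same steps were not counted over all lower genes, and no time pattern of the members is drawn from them.

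Among the members, the share lower at 4 h differed with the 0 h signal, and over all genes it hardly did. Of the 10 lower genes, 6 had a 4 h signal of 200 or less. These genes were picked by the 4 h ratio, so a low 4 h signal follows in part from the choice. Among genes under the median 0 h signal, 7 of 20 members (35.0%) and 14.6% of all genes lay at least 2-fold lower at 4 h. Among those over it the count was 3 of 43 members (6.98%) and 14.2% of all genes. The Polr2 genes had a median mean signal of 3486 and the Mediator genes of 817, and signals of different probe sets also differ in affinity. The part of signal strength in the difference between complexes was not tested.

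**Figure D4:**
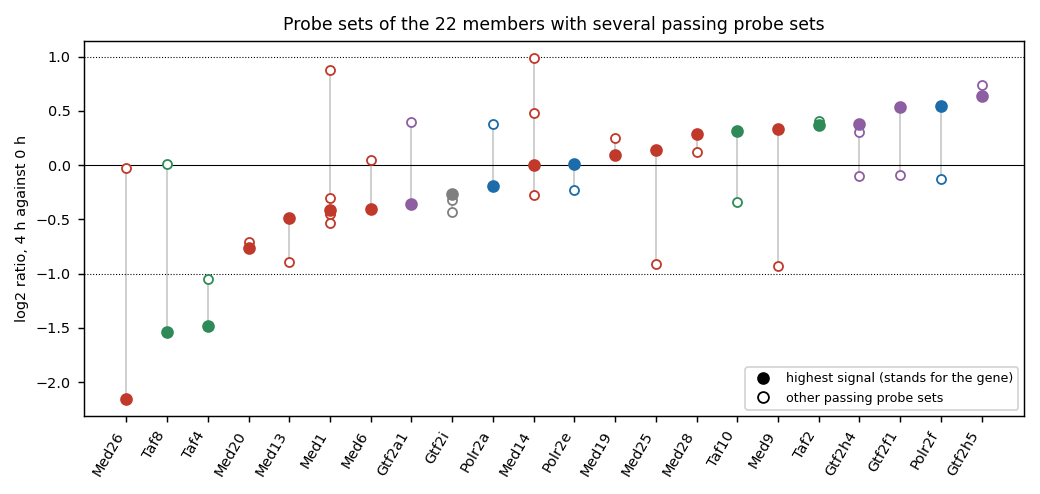
Log2 ratio at 4 h against 0 h (y axis) for each passing probe set of the 22 members with several; filled circles stand for the gene and open circles are its other probe sets. Both probe sets lie beyond 2-fold for Taf4, whereas those of Med26 and Taf8 are split.

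In 9 of these 22 members all probe sets had the same sign at 4 h, and in 11 at 2 h. The members that differed most between their probe sets at 4 h were Med26, Taf8 and Med9. Of the 10 lower genes 7 rest on a single passing probe set, as do 41 of all 63 passing members, and have no such check.

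The 7 members that did not pass the filter, and have no ratio, were Med12l, Taf3, Taf5, Taf7, Taf15, Gtf2a1l and Med9os. Taf5, a scaffold of TFIID, had signals of 362, 122 and 42.3, and Taf3, which reads a promoter histone mark, 200.3, 84.1 and 47.8. Both were under the floor at 4 h. Taf15, which encodes an RNA-binding protein, had 87.2, 173 and 285. The brightest probe set of Taf7 had 85.8, 22.0 and 36.6, that of the Gtf2a1 relative Gtf2a1l 156, 73.0 and 26.1, that of Med12l 145, 90.9 and 110, and that of Med9os 72.3, 73.7 and 39.6.

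A list of related genes that the symbol rule leaves out, from TFIID, TFIIH and the Mediator kinase module, from SAGA and NC2, and of factors that resemble or act on the TATA-binding protein, had 4 of 15 passing genes at least 2-fold lower at 4 h and none higher, with a median of -0.68. Tbp, the TATA-binding protein at the centre of TFIID, had signals of 999, 577 and 279 (-1.84 at 4 h). Cdk7, the TFIIH kinase that phosphorylates the polymerase tail, was at -1.52 ± 0.47 (SD over 3 probe sets). The highest were Drap1, a subunit of the repressor NC2, at 0.91, and Ccnc, cyclin C of the Mediator kinase module, at 0.51. Of 25 elongation and tail-processing factors 3 were at least 2-fold lower and none higher. Ctdp1, a phosphatase of the polymerase tail, was lowest at -2.02, then Rprd1b at -1.15 ± 0.32 (SD over 2 probe sets), and Rpap3 at 0.83 and Sub1 at 0.64 ± 0.07 (SD over 2 probe sets) were highest.

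Of 15 genes specific to RNA polymerases I and III, 3 were at least 2-fold lower and none higher, with a median of -0.47 at 4 h. Polr1c was at -2.40 ± 0.62 (SD over 2 probe sets) and Polr3e at -1.52, while Crcp was at 0.91 and Polr3k at 0.64 ± 0.37 (SD over 4 probe sets). Of 14 genes of SAGA and related coactivators 3 were at least 2-fold lower and 1 higher. Tada2b was at -2.41 and Atxn7l3 at -1.27, and Eny2, which SAGA shares with an mRNA export complex, was at 1.13 ± 0.82 (SD over 4 probe sets) and Trrap at 0.38. All these counts stand beside the 14.4% of all genes that were at least 2-fold lower at 4 h.

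**Figure D5:**
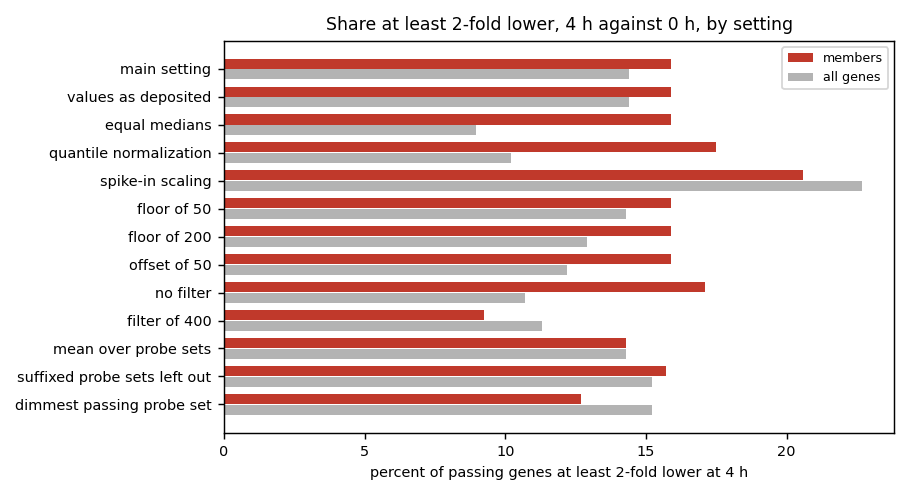
Percent of passing genes at least 2-fold lower at 4 h against 0 h (x axis) in each of 13 processing settings (rows), for the members (red) and all genes (grey). The members' share runs from 9.26% with a filter of 400 to 20.6% with spike-in scaling, and lies below that of all genes in both of these settings. It is also below with the dimmest probe set (12.7% against 15.2%) and level with the mean over probe sets (14.3% for each).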

How the data were processed

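Expression in B16 cells was measured on 1 Affymetrix Mouse430_2 array per time point, per the file headers. The deposited values are probe set intensities that the authors had scaled, with a 2% trimmed mean of 150.0 on each of the 3 arrays. Per the submitters' processing notes GCOS 1.4 was used; how it summarised probes is not given in the sources.

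Arrays were brought to a 2% trimmed mean of 500, floored at 100 and put on the log2 scale. Genes are probe sets with 1 symbol in the platform annotation, updated by Entrez ID to GRCm38.p6. Of 45101 probe sets, 64 are controls. With 1 array per time there is no test, and members were counted past 2-fold beside the same count over all 9723 passing genes. The counting step was run on simulated data with less noise than the spread between probe sets here. Planted falls that would have passed the floor were left out. This checks the code and says nothing of the precision of these data. Members, partner lists and markers were chosen with earlier results of these data known. Signals on all arrays are given for members past 2-fold, those nearest that limit, the 5 brightest and Polr2a, and in each partner list the 2 highest and 2 lowest genes are named; others were chosen after their values were seen. The 12 alternatives change the scaling, floor, filter or probe set; applying them to counts below or near 0 h per complex was added after the data were seen. Values were computed with pandas 2.3.3, numpy 2.4.6 and scipy 1.17.1 in Python 3.11.15 and drawn with matplotlib 3.10.9.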

Additional observations from a re-analysis of the deposited data

How the results depend on the processing

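No paired analysis was possible because each time point had 1 array. The number of members at least 2-fold lower at 4 h against 0 h was 10, and 8 to 13 in 11 of the 12 alternatives, but 5 with a filter of 400, where fewer genes were counted. Gtf2e1, Med17, Med18, Med31 and Med4 were at least 2-fold lower in all of them. Med22, Med23, Med26, Taf4 and Taf8 were not counted with the filter of 400, Med26 and Taf8 not with the dimmest probe set, Med22 and Taf8 not without suffixed probe sets (names ending in _x_at, _s_at or _a_at), and Taf8 not with the mean over probe sets. Med8 was added with quantile normalization, Med8, Med13l and Med20 with spike-in scaling, and Taf3 and Taf5 without a filter. At 2 h, 6 members were at least 2-fold lower with spike-in scaling (9.52%, against 9.42% of all genes), in place of 0. Without a filter 2 were lower at 2 h (2.86% against 5.65%), in place of 0. With the dimmest probe set 1 was higher at 2 h (1.59% against 2.13%), in place of 0. Without a filter 2 members were higher at 4 h, Taf13 and Taf15, in place of 1 (2.86% against 2.23%). For 4 h against 2 h, 3 members in place of 6 were lower with the filter of 400 (5.56% against 3.68%). The 2 h median relative to all genes was -0.03, but 0.11 when probe sets with suffixes were dropped. For Taf8 the log2 ratio at 4 h was 0.0107 both without suffixed probe sets and with the dimmest probe set. The Mediator median relative to all genes at 4 h ran from -0.40 to -0.16. Signals near the floor limit the ratios of Med22, Med18, Med23 and Med26.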

Other observations

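Gene length was set beside the log2 ratios. The median genomic span of the members at least 2-fold lower at 4 h in GRCm38.p6 was 19.3 kb over 10 genes, against 14.2 kb over the other 53 members and over all genes with a known span 24.8 kb for the 1393 lower at 4 h and 23.1 kb for the others. Across the 63 members the Spearman correlation of span with the log2 ratio was -0.45 at 2 h and -0.29 at 4 h, against -0.15 and -0.09 across 9690 genes. All genes share the same arrays, members with longer genes also had lower signals (Spearman correlation -0.34), and genes are not independent replicates, so these values are a description only.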
